A study of Mus musculus with 4 samples.

Results

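The nuclear-encoded genes of oxidative phosphorylation were followed by complex in lens RNA of mice that carry a deamidation-mimicking or an unmodified alpha A crystallin transgene. Members were the gene symbols that match the family names Ndufa, Ndufb, Ndufc, Ndufs and Ndufv with a number (complex I), Sdha to Sdhd (complex II), Uqcr and Cyc1 (complex III), Cox4 to Cox8 (complex IV) and Atp5 (complex V). Assembly factors named Ndufaf were not members. The rule found 85 genes among the 21382 named genes, 36 in complex I, 4 in complex II, 9 in complex III, 19 in complex IV and 17 in complex V. A level of 1 FPKM or more (fragments scaled to transcript length and to mapped fragments) in at least 1 library was reached by 82 of them and by 11309 of all named genes, and these were analysed. The 3 that never reached it were Cox6a2, Cox7b2 and Cox8c. Uqcrc2 and Uqcrh have no usable value at 4 months, so 80 members have values in all 4 libraries. The name rule also takes in Cox4nb, Atp5s and Atp5sl, which are not known as subunits, Cox7a2l, a factor of respiratory supercomplexes, and Ndufa4, which was first assigned to complex I and is now counted with complex IV. Calling the genes oxidative phosphorylation genes is therefore right for most members but not for each.

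The groups were lenses of CRYAAN101D mice and of CRYAAWT mice, both transgenic and both on C57BL/6, at 2 and at 4 months of age. CRYAAN101D mice (N101D below) express an alpha A crystallin with aspartate in place of asparagine, which stands for deamidation, and CRYAAWT mice (WT below) express the unmodified protein. The WT animals are thus transgenic too, and no library of mice without a transgene was analysed here. The labels give neither the promoter of the transgenes, nor the number of animals or lenses in a library, nor their sex. Each group is 1 library, so no group has a replicate. Depth recovered from the steps in the FPKM values was about 24.4 M fragments for N101D and 49.8 M for WT at 2 months, and 53.2 M for N101D and 34.9 M for WT at 4 months. Crystallins made up 67.0% of the summed FPKM of named genes in N101D against 71.4% in WT at 2 months, and 55.2% in N101D against 59.8% in WT at 4 months, and all 8 lens fiber markers that were analysed lay between 45.9 and 3910 FPKM. The N101D library at 2 months stood apart from the other 3. Its 4 Y-linked genes Ddx3y, Eif2s3y, Kdm5d and Uty lay between 0.0367 and 0.303 FPKM, against 1.55 to 11.6 FPKM in the other 3 libraries. The summed FPKM of 10 markers of pigmented tissue, such as Dct and Pmel, was 37.1 in it, against 398 in WT at 2 months, 363 in N101D at 4 months and 337 in WT at 4 months. The comparison at 2 months and the age comparison in N101D rest on that library, and the comparison at 4 months and the age comparison in WT do not use it.

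Oxidative phosphorylation takes place in the inner mitochondrial membrane. Complex I (NADH dehydrogenase), complex II (succinate dehydrogenase), complex III (the cytochrome bc1 complex) and complex IV (cytochrome c oxidase) pass electrons to oxygen and, except for complex II, pump protons, and complex V (ATP synthase) uses the proton gradient to make ATP. Most subunits are encoded in the nucleus and the rest in mitochondrial DNA. In the lens, mitochondria are kept in the epithelium and in young fibers and are lost as fibers mature. These libraries also hold RNA of markers of pigmented tissue, photoreceptors and blood, and in whole tissue, fewer cells of a type and less RNA per cell cannot be told apart.

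The members were expressed over a wide range of levels. Summed over the 83 members with a value in every library, they came to 4740 FPKM in N101D lenses against 4577 FPKM in WT lenses at 2 months, and to 4211 FPKM in N101D lenses against 4847 FPKM in WT lenses at 4 months. Complex I added up to 1839 FPKM in N101D lenses against 1690 in WT lenses at 2 months, and to 1443 in N101D lenses against 1672 in WT lenses at 4 months. The 19 complex IV genes came to 1365 FPKM in N101D lenses against 1283 in WT lenses at 2 months, and to 1295 in N101D lenses against 1527 in WT lenses at 4 months. Complex V gave 1147 FPKM in N101D lenses against 1189 in WT lenses at 2 months, and 1110 in N101D lenses against 1246 in WT lenses at 4 months. The 7 complex III genes with values throughout gave 241 to 284 FPKM and the 4 complex II genes 112 to 131 FPKM. At 4 months the N101D sum was thus below the WT sum in each of the 5 complexes, and at 2 months it was above the WT sum in complexes I and IV and below it in complexes II, III and V. The highest mean belonged to Cox4i1 in complex IV and the lowest among the genes analysed to Cox7a1, also in complex IV.

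**Figure D1:**
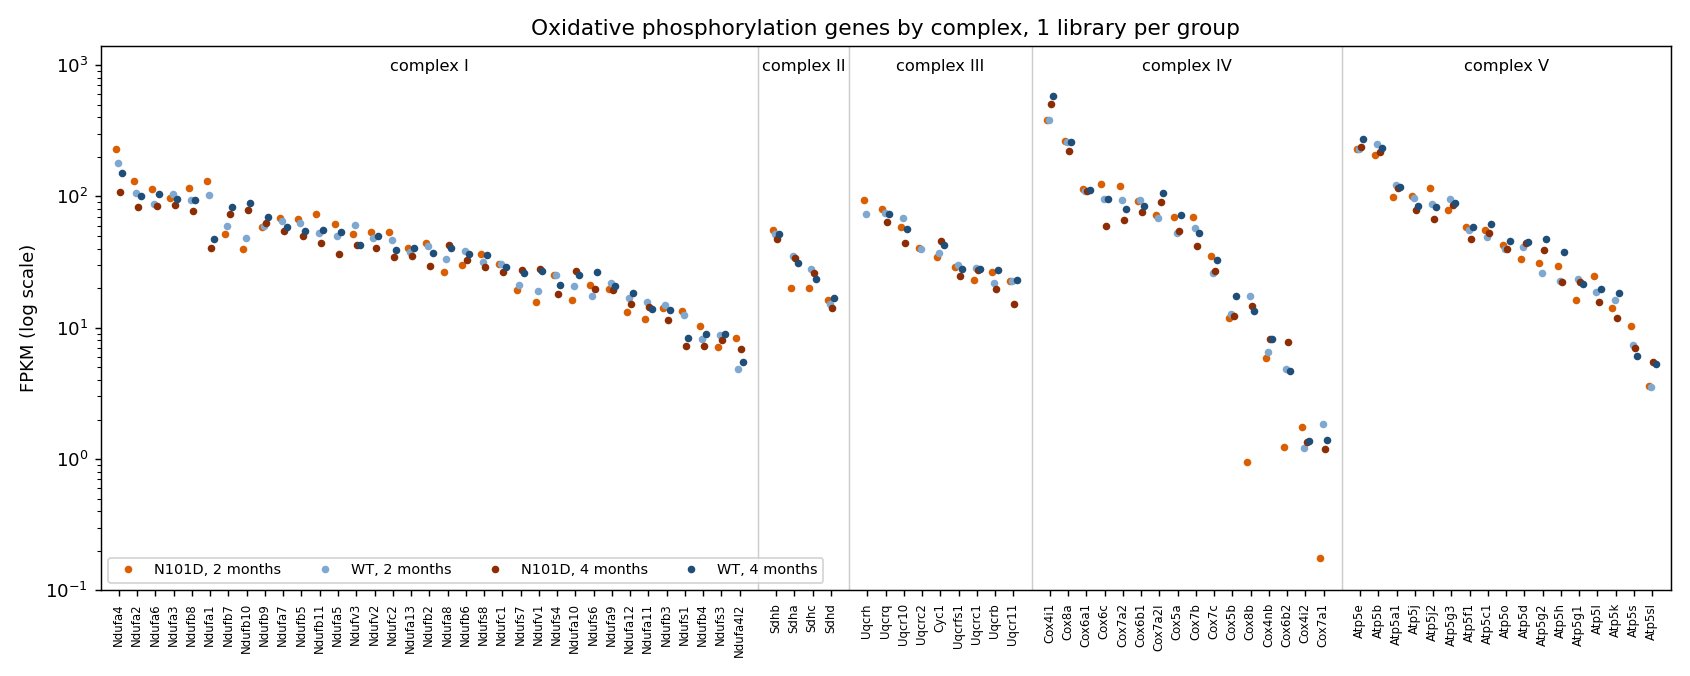
FPKM (log scale) of the 82 members analysed except 1, grouped by complex and ordered by mean level, with 1 point per library. Most genes hold their 4 points close together, while Cox8b, Cox6b2 and Cox7a1 of complex IV have 1 point, N101D at 2 months, far below the others (0.948, 1.24 and 0.176 FPKM).

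Genotypes were compared at each age as the difference of log2(FPKM + 1), N101D minus WT, which has no replicate check and no p-value. At 2 months 45 of the 82 members were higher in N101D and 37 were lower, with a median difference of 0.03. Of all genes analysed, 35.6% were higher and 64.3% lower in N101D, and their median was -0.09. Past a difference of 0.32 in either direction (the log2 of the smaller of 2 folds set for counting), 15 members were higher (5.98% of all genes) and 11 lower (19.9% of all genes). Past 2-fold, 3 members were lower (3.63% of all genes) and none was higher (0.407% of all genes). When the libraries were instead set to equal totals of the named genes other than crystallins, the median of all genes moved to -0.46 and that of the members to -0.42, with 79 of 82 lower in N101D, so the direction at 2 months depends on the scaling. A few loci weigh heavily on these totals of 263775 FPKM in N101D lenses against 189605 in WT lenses. Mir715 had 34147 FPKM in N101D lenses against 7768 in WT lenses, C230081A13Rik 15580 against 2869, and 2610528E23Rik 12234 against 2629. Filip1l had 8620 against 2215 and Kpna1 8477 against 1757. The position relative to all genes was 0.12 as deposited, 0.03 with equal totals and 0.0 with quantile normalization.

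At 4 months 64 of 80 members were lower in N101D, against 44.7% of all genes, and 16 were higher, against 55.3% of all genes. The median difference of the members was -0.18 and that of all genes 0.03. Past a difference of 0.32, 12 members were lower (6.3% of all genes) and 1 was higher, Cox6b2 (10.3% of all genes). No member passed 2-fold, where 0.284% of all genes were lower and 0.337% higher. The median was on the same side in complexes I (-0.17, 29 of 36 lower), III (-0.19, 6 of 7 lower), IV (-0.22, 13 of 16 lower) and V (-0.18, 14 of 17 lower), while complex II was at -0.02 with 2 of 4 lower. With equal totals without crystallins the median of all members was -0.20. With quantile normalization it was -0.09, with 55 of 80 lower, complex V was at -0.01 and complex II turned to 0.07.

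Over both ages, 40 of 80 members were above WT at 2 months and below WT at 4 months in N101D, which is 50.0% of the members and 21.6% of all genes. The opposite course was taken by 13 members (16.2%, against 41.3% of all genes). N101D was below WT at both ages for 24 members (30.0%, against 23.1% of all genes) and above WT at both for 3 members, Ndufa4l2, Atp5s and Atp5sl (3.75%, against 14.0% of all genes). Past a difference of 0.32 in opposite directions at the 2 ages were 5 members (6.25%), against 5.91% of all genes. After quantile normalization 39 members took the course from above to below (34.3% of all genes). With equal totals without crystallins only 1 did, and 65 were below WT at both ages. Across the 80 members the differences at 2 and at 4 months, which share no library, correlated at Pearson r = -0.46 and Spearman's coefficient = -0.57, beside -0.27 and -0.34 across all genes; the genes of a complex are not independent points.

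**Figure D2:**
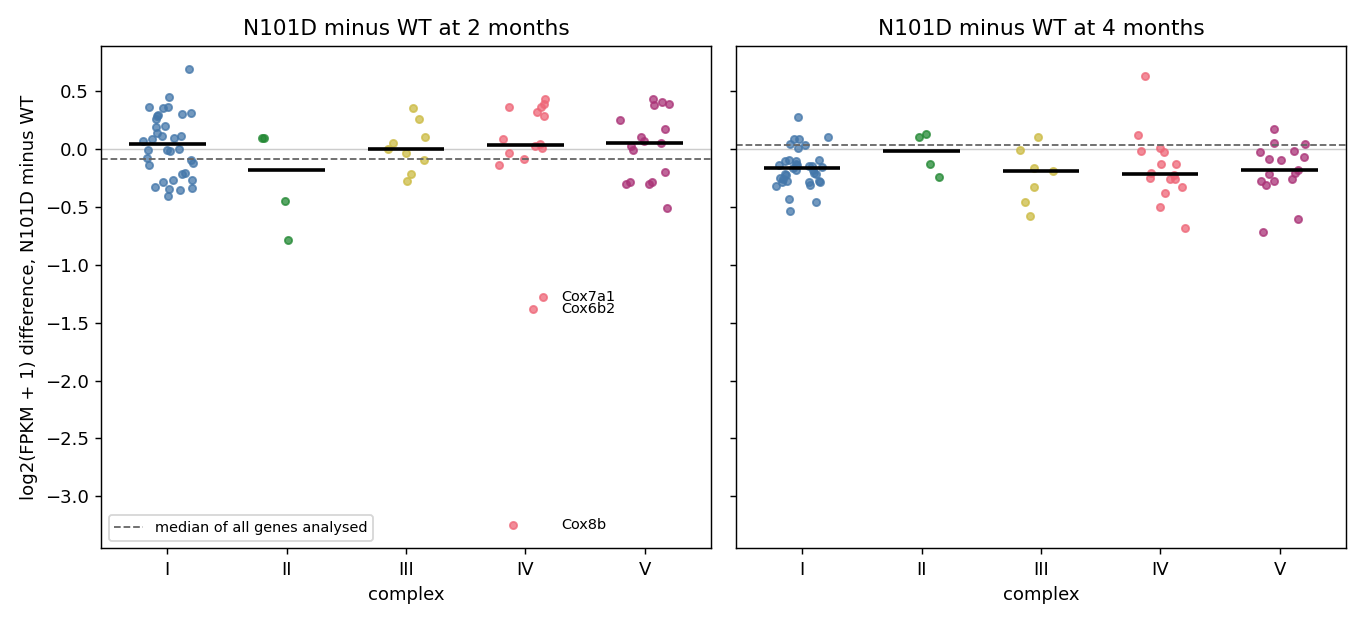
Difference in log2(FPKM + 1), N101D minus WT, of each member at 2 months (left) and 4 months (right) by complex, with the median of each complex as a black bar and the median of all genes analysed as a dashed line. At 2 months the bars of complexes I, III, IV and V lie above the dashed line at -0.09, and at 4 months all 5 bars lie below it at 0.03; with equal totals without crystallins the 2-month medians of all 5 complexes are negative.

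In complex I the most abundant member was Ndufa4, at 230 FPKM in N101D lenses against 179 in WT lenses at 2 months, and at 108 in N101D lenses against 150 in WT lenses at 4 months. N101D was thus the highest of the 4 libraries at 2 months and the lowest at 4 months, with differences of 0.36 and -0.46 from WT. Ndufa2, an accessory subunit, had 131 FPKM in N101D lenses against 106 in WT lenses at 2 months, and 82.5 in N101D lenses against 100 in WT lenses at 4 months. Ndufa5, another accessory subunit, showed the lowest difference of complex I at 4 months: its level was 61.5 FPKM in N101D lenses against 50.0 in WT lenses at 2 months, and 36.7 in N101D lenses against 53.9 in WT lenses at 4 months, a difference of -0.54 at the later age. Ndufb11, an X-linked accessory subunit, had 72.9 FPKM in N101D lenses against 53.0 in WT lenses at 2 months, and 44.4 in N101D lenses against 55.6 in WT lenses at 4 months. The X-linked members Ndufa1, Ndufb11 and Cox7b (complex IV) differed by 0.35, 0.45 and 0.28 at 2 months, where Xist, the RNA of the inactive X chromosome, was at 12.9 FPKM in the N101D library and 0.0744 in the WT library; the part of sex in these values was not tested. Ndufs3, a core subunit of the arm that takes electrons from NADH, was among the least abundant at 7.10 FPKM in N101D lenses against 8.79 in WT lenses at 2 months, and 8.11 in N101D lenses against 9.0 in WT lenses at 4 months. Its N101D libraries lay below both WT libraries.

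Ndufa4l2, a paralog of Ndufa4 known as a target of hypoxia-inducible factor, ran the other way. It had 8.43 FPKM in N101D lenses against 4.83 in WT lenses at 2 months, and 6.84 in N101D lenses against 5.51 in WT lenses at 4 months. It was the only member whose 2 N101D libraries lay above both WT libraries, where 5.93% of all genes did so. The difference of 0.69 was the highest of all members at 2 months, and that of 0.27 came after Cox6b2 at 4 months. Both N101D libraries lay below both WT libraries for 13 members (16.2%), where 10.6% of all genes did so: 5 in complex I (among them Ndufa9, Ndufa12, Ndufb6 and Ndufs3), Uqcr11 and Uqcrc1 in complex III, Cox5b and Cox7a1 in complex IV, and Atp5a1, Atp5b, Atp5g3 and Atp5k in complex V. These counts are of the values as deposited. By the looser measure of N101D below WT at each age, 24 of 80 members were counted as deposited, 65 with equal totals without crystallins and 16 with quantile normalization.

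Complex II was led by low values of Sdha and Sdhc at 2 months. Sdha, the flavoprotein subunit that oxidises succinate, had 20.1 FPKM in N101D lenses against 35.5 in WT lenses at 2 months, and 33.7 in N101D lenses against 31.3 in WT lenses at 4 months. The N101D library at 2 months was the low one, by -0.79 against WT, and the other 3 lay close together. Sdhc, a membrane anchor, had the same shape with 20.2 FPKM in N101D lenses against 27.9 in WT lenses at 2 months, and 26.0 in N101D lenses against 23.6 in WT lenses at 4 months. Sdhb, the iron-sulfur subunit, and Sdhd, the other anchor, differed by 0.09 at 2 months and by -0.13 and -0.24 at 4 months, with levels of 47.1 to 55.5 and 14.2 to 16.9 FPKM.

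In complex III Uqcrh, the hinge protein, had the highest mean level at 2 months, at 93.5 FPKM in N101D lenses against 73.1 in WT lenses. Uqcrq, a small subunit, had 80.8 FPKM in N101D lenses against 75.3 in WT lenses at 2 months, and 63.9 in N101D lenses against 73.0 in WT lenses at 4 months. Uqcrb, another small subunit, had 26.7 FPKM in N101D lenses against 22.1 in WT lenses at 2 months, and 19.7 in N101D lenses against 27.5 in WT lenses at 4 months. Uqcr11, the smallest subunit, was at 22.6 FPKM in both genotypes at 2 months, and at 15.2 in N101D lenses against 23.1 in WT lenses at 4 months, a difference of -0.58. For Uqcrb and Uqcr11 the N101D library at 4 months was the lowest of the 4. Of the larger subunits, Cyc1, the cytochrome c1 protein, was the 1 member of this complex higher in N101D at 4 months, by 0.10.

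In complex V, Atp5e, the epsilon subunit, had 228 FPKM in N101D lenses against 231 in WT lenses at 2 months, and 236 in N101D lenses against 272 in WT lenses at 4 months. Atp5b, the catalytic beta subunit, had 206 FPKM in N101D lenses against 252 in WT lenses at 2 months, and 218 in N101D lenses against 233 in WT lenses at 4 months, so both N101D libraries were below both WT libraries. Atp5h, subunit d of the peripheral stalk, had the lowest difference of all members at 4 months. Its level was 29.7 FPKM in N101D lenses against 22.6 in WT lenses at 2 months, and 22.5 in N101D lenses against 37.7 in WT lenses at 4 months, which gives 0.38 and -0.72. Atp5k, subunit e, had 14.1 FPKM in N101D lenses against 16.4 in WT lenses at 2 months, and 11.8 in N101D lenses against 18.5 in WT lenses at 4 months, with differences of -0.20 and -0.61. A locus with the symbol of Pde6b, a rod photoreceptor gene, has the same listed span as Atp5k. A locus with the symbol Kctd2 has that of Atp5h, so reads may have been shared between such loci. Such a shared span was found for 28 of the 82 members, among them Ndufa4l2 (with Shmt2), Ndufa1 (Rnf113a1), Ndufb11 (Rbm10) and Sdha (Ccdc127 and Lrrc14b).

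Atp5l, subunit g, had 24.9 FPKM in N101D lenses against 18.7 in WT lenses at 2 months, and 15.7 in N101D lenses against 19.7 in WT lenses at 4 months. Atp5g1, 1 of 3 genes for the c subunit of the rotor, was lower in N101D at 2 months, at 16.2 FPKM in N101D lenses against 23.4 in WT lenses, and close at 4 months, at 22.3 in N101D lenses against 21.5 in WT lenses. Of its sister genes, Atp5g3 was also lower at 2 months and close at 4 months (-0.30 and -0.07), while Atp5g2 stood at 0.25 and -0.26. The non-subunits Atp5s and Atp5sl were among the lowest in level. Atp5s had 10.3 FPKM in N101D lenses against 7.41 in WT lenses at 2 months, and 7.05 in N101D lenses against 6.14 in WT lenses at 4 months. Atp5sl had 3.59 FPKM in N101D lenses against 3.52 in WT lenses at 2 months, and 5.46 in N101D lenses against 5.26 in WT lenses at 4 months.

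In complex IV the widely expressed subunits moved with the other complexes. Cox4i1, the regulatory subunit, had 384 FPKM in N101D lenses against 380 in WT lenses at 2 months, and 503 in N101D lenses against 582 in WT lenses at 4 months. Cox6c had 124 FPKM in N101D lenses against 96.1 in WT lenses at 2 months, and 59.9 in N101D lenses against 96.3 in WT lenses at 4 months, so the WT libraries were level while N101D was the highest at 2 months and the lowest at 4 months (0.36 and -0.68). Cox7c had 35.2 FPKM in N101D lenses against 25.9 in WT lenses at 2 months, and 27.1 in N101D lenses against 32.7 in WT lenses at 4 months. Without the 4 isoforms of restricted expression, 11 of the 12 other complex IV genes analysed were lower in N101D at 4 months (44.7% of all genes), with a median of -0.25. At 2 months 3 of 12 were lower (64.3% of all genes), with a median of 0.06. These 12 include Cox4nb and Cox7a2l. Of all 16 complex IV genes analysed, 15 were lower at 2 months with equal totals without crystallins, and 8 with quantile normalization.

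Isoforms of restricted expression gave the 3 largest differences of all members at 2 months. Cox8b and Cox7a1 are the heart and skeletal muscle forms of subunits whose widely expressed forms are Cox8a and Cox7a2, and Cox6b2 is the testis form beside Cox6b1. Cox8b had 0.948 FPKM in N101D lenses against 17.5 in WT lenses at 2 months, and 14.6 in N101D lenses against 13.4 in WT lenses at 4 months, which rests on about 5 reads in N101D (95% Poisson interval 1.62 to 11.7) and 176 in WT (151 to 204) at 2 months; intervals of this kind cover counting error only. Cox6b2 had 1.24 FPKM in N101D lenses against 4.83 in WT lenses at 2 months, and 7.77 in N101D lenses against 4.66 in WT lenses at 4 months, with about 13 reads in N101D (6.92 to 22.2) and 103 in WT (84.1 to 125) at 2 months. Cox7a1 had 0.176 FPKM in N101D lenses against 1.86 in WT lenses at 2 months, and 1.19 in N101D lenses against 1.39 in WT lenses at 4 months, with about 1 read in N101D (0.0253 to 5.57) and 22 in WT (13.8 to 33.3) at 2 months. The steps in the values of that N101D library match a doubled depth slightly better, with which its reads would be about 9 for Cox8b (4.12 to 17.1), 25 for Cox6b2 (16.2 to 36.9) and 2 for Cox7a1 (0.242 to 7.22). The 3 were therefore low in the same library, N101D at 2 months, by -3.25, -1.38 and -1.28 against WT, and differed by 0.12, 0.63 and -0.13 at 4 months. The difference of Cox7a1 was -0.83 after quantile normalization and -2.83 with 0.1 in place of 1 as the added constant.

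The widely expressed partners had no such low library. Cox8a had 263 FPKM in N101D lenses against 260 in WT lenses at 2 months, and 220 in N101D lenses against 262 in WT lenses at 4 months. Cox6b1 had 92.0 in N101D lenses against 94.5 in WT lenses at 2 months, and 76.6 in N101D lenses against 84.1 in WT lenses at 4 months. Cox7a2 had 121 in N101D lenses against 93.6 in WT lenses at 2 months, and 66.4 in N101D lenses against 80 in WT lenses at 4 months. Cox4i2, the lung form of Cox4i1, was low in every library at 1.21 to 1.77 FPKM, and Cox6a2, the muscle form of Cox6a1, lay at 0.0963 to 0.351 FPKM beside 110 to 113 FPKM for Cox6a1. Cox7b2 and Cox8c, known from testis, were at 0 to 0.0309 and at 0 FPKM, on at most about 1 read.

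To show how far reads of these pairs can be told apart, the coding sequences of Cox8b, Cox8a, Cox7a1 and Cox7a2 are given from the GENCODE transcripts of GRCm38, 5′ to 3′ without the stop codon, with capitals where a base differs from the partner in a global alignment. Cox8b and Cox7a1 lie on chromosome 7, Cox8a on chromosome 19 and Cox7a2 on chromosome 9.
Cox8b: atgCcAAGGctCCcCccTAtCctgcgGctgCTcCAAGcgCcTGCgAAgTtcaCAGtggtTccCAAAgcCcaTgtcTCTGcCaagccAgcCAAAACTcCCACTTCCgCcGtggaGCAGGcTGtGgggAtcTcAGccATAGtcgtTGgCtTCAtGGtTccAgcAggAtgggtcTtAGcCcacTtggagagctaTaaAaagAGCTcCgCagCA
Cox8a: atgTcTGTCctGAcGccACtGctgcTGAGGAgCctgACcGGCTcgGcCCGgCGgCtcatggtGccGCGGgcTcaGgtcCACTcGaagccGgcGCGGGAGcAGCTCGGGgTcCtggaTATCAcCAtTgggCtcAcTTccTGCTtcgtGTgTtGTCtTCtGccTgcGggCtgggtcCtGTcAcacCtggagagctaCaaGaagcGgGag
Cox7a1: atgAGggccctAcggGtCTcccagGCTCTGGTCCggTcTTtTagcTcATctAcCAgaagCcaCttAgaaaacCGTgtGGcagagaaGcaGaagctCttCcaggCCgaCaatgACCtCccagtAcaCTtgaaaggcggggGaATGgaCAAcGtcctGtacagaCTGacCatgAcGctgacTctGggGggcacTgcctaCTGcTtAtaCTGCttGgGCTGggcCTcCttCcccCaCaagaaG
Cox7a2: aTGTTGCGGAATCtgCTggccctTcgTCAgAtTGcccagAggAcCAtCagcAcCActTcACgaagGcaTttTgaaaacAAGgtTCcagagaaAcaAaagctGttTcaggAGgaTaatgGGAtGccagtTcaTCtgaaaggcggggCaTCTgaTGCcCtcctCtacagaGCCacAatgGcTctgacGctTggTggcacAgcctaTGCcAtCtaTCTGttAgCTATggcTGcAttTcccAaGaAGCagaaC
Cox8b and Cox8a share 109 of 201 aligned positions (54.2%), with no run of identical bases longer than 10. Cox7a1 and Cox7a2 share 152 of 231 (65.8%), with no run longer than 12. Cox6b2 and Cox6b1 share 64.2%, with runs of up to 14.

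**Figure D3:**
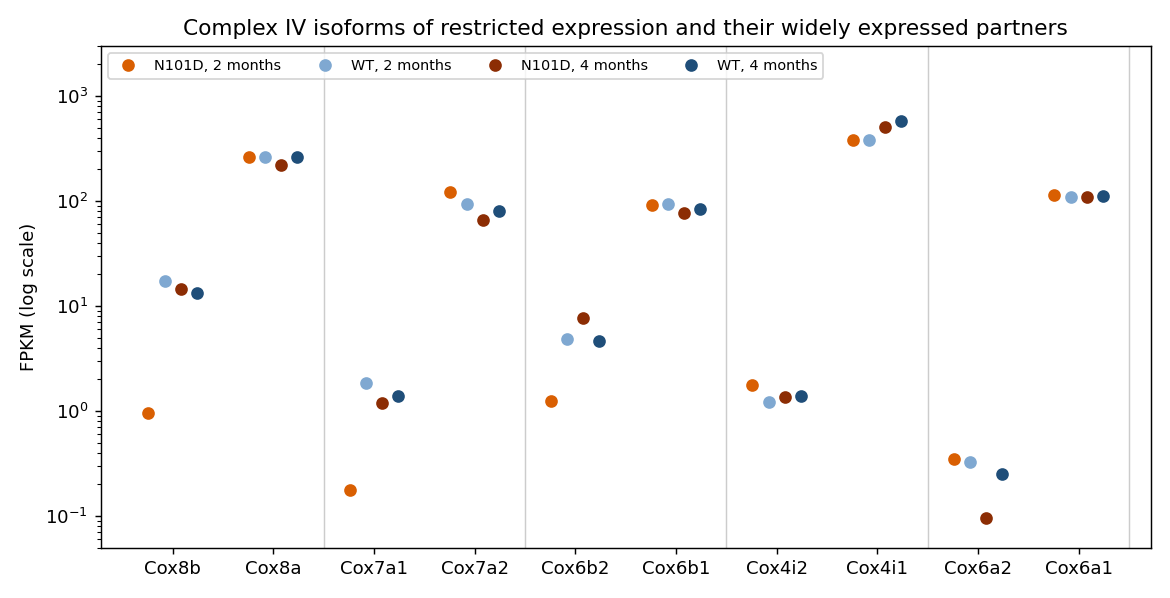
FPKM (log scale) of 5 complex IV isoforms of restricted expression, each left of its widely expressed partner, with 1 point per library. Cox8b, Cox7a1 and Cox6b2 are lowest in N101D at 2 months, while Cox8a, Cox7a2 and Cox6b1 stay between 66.4 and 263 FPKM in all libraries.

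The low values of these isoforms fell in the library that also held little signal of pigmented tissue and of Y-linked genes. All 10 pigmented tissue markers were lower in N101D at 2 months, by a median of -3.21, with Dct at 3.17 FPKM in N101D lenses against 138 in WT lenses and Pmel at 1.75 in N101D lenses against 47.6 in WT lenses. At 4 months the same markers differed by a median of 0.08, with 5 of 10 lower. Striated muscle markers were low in all libraries, with 5 of 13 analysed and their sum at 8.49 FPKM in N101D lenses against 6.72 in WT lenses at 2 months, and at 9.88 in N101D lenses against 9.98 in WT lenses at 4 months. Ckm, the muscle creatine kinase, was at 3.44 FPKM in N101D lenses against 2.90 in WT lenses at 2 months. Tnnt3, a fast muscle troponin, was lowest in the same library as Cox8b, at 0.132 FPKM in N101D lenses against 0.587 in WT lenses at 2 months, and 1.03 in N101D lenses against 0.607 in WT lenses at 4 months. The other 3 differed by 0.35 (Acta1), 0.26 (Mylpf) and -0.07 (Mb) at 2 months. The part of pigmented tissue or muscle in the isoform result was not tested.

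The 4-month result moved with markers of another tissue as well. All 17 rod and cone photoreceptor markers were lower in N101D at 4 months, by a median of -0.67, and their sum was 538 FPKM in N101D lenses against 900 in WT lenses; at 2 months it was 504 in N101D lenses against 548 in WT lenses, with a median difference of -0.09. None of the 17 was at 0 in any library. Blood markers, 5 of 7 listed, had a median difference of -0.90 at 2 months and of 1.34 at 4 months, with sums of 147 FPKM in N101D lenses against 349 in WT lenses at 2 months, and 122 in N101D lenses against 45.6 in WT lenses at 4 months. Lens fiber markers were lower in N101D at 4 months for 7 of 8, by a median of -0.21, with sums of 8368 FPKM in N101D lenses against 9658 in WT lenses. Lens epithelium markers differed by a median of 0.03 at 4 months, with 3 of 9 lower. The part of these tissues in the result for oxidative phosphorylation genes was not tested.

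Age was compared as the difference of 4 minus 2 months within each genotype, between tables whose status column differs between the ages and which may have been estimated separately. In N101D 50 of 80 members were lower at 4 months (35.3% of all genes) and 30 were higher (64.6% of all genes). The median of the members was -0.21 and that of all genes 0.15, and with equal totals without crystallins these became 0.25 and 0.51, so the members' direction flips with that scaling. Past a difference of 0.32, 29 members were lower (12.1% of all genes) and 18 were higher (33.3% of all genes). Past 2-fold, Ndufa1, Ndufa4 and Cox6c were lower (1.1% of all genes) and Cox8b and Cox6b2 higher (5.21% of all genes). In WT 37 of 80 members were lower at 4 months (51.6% of all genes) and 43 higher (48.4% of all genes), with a median of 0.03 as deposited and of -0.05 after quantile normalization. Past a difference of 0.32, 4 were lower (10.8% of all genes) and 13 higher (13.3% of all genes), and past 2-fold 1 was lower, Ndufa1 (0.479% of all genes), and none higher (0.675% of all genes).

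Ndufa1, an X-linked subunit needed to build complex I, had the largest age difference of the widely expressed members. It had 40.5 FPKM at 4 months and 131 at 2 months in N101D, and 47.4 at 4 months and 102 at 2 months in WT, differences of -1.67 and -1.09. Both 4-month libraries lay below both 2-month libraries. Ndufs1, the largest iron-sulfur subunit of complex I, was the other member past a difference of 0.32 lower in both genotypes (2.5% of members, 3.62% of all genes), at 7.24 FPKM at 4 months and 13.3 at 2 months in N101D, and at 8.34 at 4 months and 12.5 at 2 months in WT. On the other side stood Ndufb10, an accessory subunit of the membrane arm, with 78.8 FPKM at 4 months and 39.6 at 2 months in N101D, and 88.6 at 4 months and 48.5 at 2 months in WT. Ndufb7, Ndufv1, which binds FMN and accepts electrons from NADH, Cox4i1, Atp5g2 and Atp5sl were also past a difference of 0.32 higher in both genotypes (6 members, 7.5%, against 7.25% of all genes). Complex I thus held members at both ends, and its 36 members had medians of -0.27 in N101D lenses against 0.03 in WT lenses.

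Both 4-month libraries lay below both 2-month libraries for 24 members (30.0%, against 18.9% of all genes), 14 of them in complex I. They lay above for 15 members (18.8%, against 30.6% of all genes), 7 of them in complex I. These counts are of the values as deposited and can shift with the scaling. The direction in N101D alone, another measure, did so. As deposited 50 of 80 members, 25 of them in complex I, were lower at 4 months in N101D. With equal totals without crystallins only 18 of 80, 11 of them in complex I, were lower. Across the 80 members the age differences in N101D and WT, which share no library, correlated at Pearson r = 0.28 and Spearman's coefficient = 0.35, and across the 76 without isoforms of restricted expression at 0.56 and 0.45. Over all genes the values were 0.19 and 0.23.

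**Figure D4:**
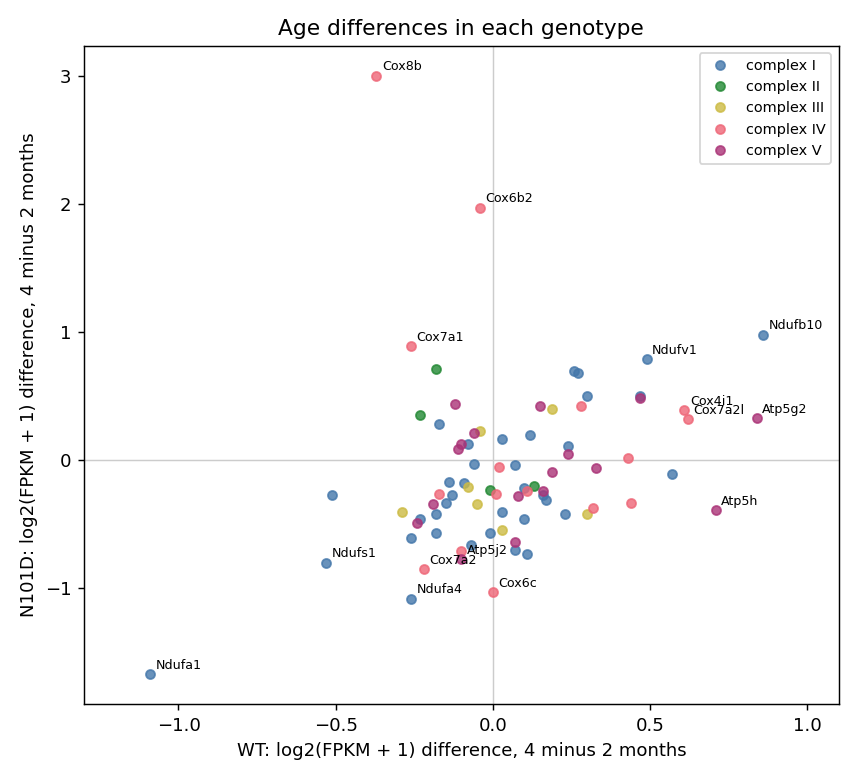
Difference in log2(FPKM + 1), 4 minus 2 months, of 80 members in N101D (vertical axis) against WT (horizontal axis), colored by complex. Ndufa1 is low (-1.67 and -1.09) and Ndufb10 high (0.98 and 0.86) in both genotypes, while Cox8b (3.0) and Cox6b2 (1.97) are high in N101D and lie at -0.37 and -0.04 in WT.

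The 1 test that spans both ages was an additive limma fit with genotype and age on log2(FPKM + 1), two-sided, with Benjamini-Hochberg adjustment over 11262 genes and 1 residual degree of freedom. Its error term for a gene is the change of the genotype difference between the ages, moderated over all genes. A genotype effect that changes with age therefore counts as error in it. No scatter among animals or among repeated libraries is known. For genotype 0 genes had a limma adjusted p under 0.05, with 118 genes (1.05%) under 0.05 before adjustment and 1 member among them, Ndufa4l2, at 0.48 ± 0.18 (SE; limma adjusted p = 1.0). For age the count was 0 as well, with 1074 genes (9.54%) under 0.05 before adjustment and 12 of 80 members (15.0%) among them. The smallest limma adjusted p of a member for age was 0.392, shared by Ndufa1 (-1.38 ± 0.20) and Ndufb10 (0.92 ± 0.15, SE). Atp5k (-0.41 ± 0.17) and Cox7a1 (-0.70 ± 0.34) had the next lowest p-values for genotype, 0.0704 and 0.0995 before adjustment in the limma fit.

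Of 43 assembly factors listed, which help to build the complexes without staying in them, 26 were analysed. Their medians lay nearer to 0 than that of the members at 4 months. Lower in N101D at 4 months were 17 of 26 (44.7% of all genes), with a median of -0.05 beside 0.03 for all genes. Lower at 2 months were also 17 of 26, a share of 65.4% that is near the 64.3% of all genes. The median there was -0.05 too, beside -0.09 for all genes. The extremes at 2 months were Atpaf2, an assembly factor of ATP synthase, at 14.2 FPKM in N101D lenses against 4.95 in WT lenses, and Cox15, which makes heme a for complex IV, at 3.27 in N101D lenses against 5.57 in WT lenses. At 4 months they were Cox18 at 2.69 FPKM in N101D lenses against 1.79 in WT lenses, and Ndufaf2 at 15.1 in N101D lenses against 20.2 in WT lenses.

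Other mitochondrial lists were set beside the members. Of the 13 enzyme genes of the tricarboxylic acid cycle, 12 were lower in N101D at 2 months (64.3% of all genes), with a median of -0.28. At 4 months 6 were lower (44.7% of all genes), with a median of 0.01. Ogdh, of the oxoglutarate dehydrogenase complex, was at both extremes, lowest at 2 months (12.7 FPKM in N101D lenses against 18.9 in WT lenses) and highest at 4 months (21.1 in N101D lenses against 17.6 in WT lenses). Among 12 regulators of mitochondrial biogenesis the medians were -0.09 and 0.07, and the lowest at 2 months was Ppargc1a, a coactivator of mitochondrial genes, at 0.466 FPKM in N101D lenses against 2.23 in WT lenses. The 71 mitochondrial ribosomal protein genes had a median of -0.04 at 2 months and of -0.06 at the later age. The 72 cytosolic ribosomal protein genes had a median of 0.26 at 2 months, with 65 higher in N101D (35.6% of all genes). Their median at the later age was -0.50, with 68 lower (44.7% of all genes). As deposited, the cytosolic ribosomal list thus took the same order of signs as the members, with larger values. With equal totals without crystallins the members' median at 2 months was -0.42, so that order depends on the scaling.

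Transcript length and base composition were set beside the differences, with a GENCODE transcript matched for each of the 82 members. The members' transcripts are short, with a median of 870 bases against 3041 bases over all genes, at a median GC of 51.7% against 50.5%. At 4 months the genotype difference correlated with log2 length at r = 0.33 across members and r = 0.20 across all genes. With GC it correlated at r = 0.25 across members and r = 0.27 across all genes. The correlation with length was uneven between complexes, at 0.14 in complex I, -0.06 in complex IV and 0.66 in complex V. The 46 members of transcripts under 1000 bases had a median of -0.22 and the 34 longer members -0.12, while 620 genes under 1000 bases that are not members had -0.12. The age difference went with GC: across members r was 0.39 in N101D lenses against 0.29 in WT lenses, beside 0.27 and 0.14 across all genes. In complex I alone it was 0.50 in N101D lenses against 0.51 in WT lenses, and in complex V 0.42 against 0.38. Complex IV gave 0.44 in N101D lenses against -0.13 in WT lenses, so the sign was not the same throughout. In 4 groups of rising GC, of 19 to 21 members each, the members' median age difference in N101D was -0.42, -0.20, -0.17 and 0.28, beside 0.01, 0.16, 0.24 and 0.33 for all genes of the same GC ranges. The members' medians of these groups in WT were -0.11, -0.05, 0.13 and 0.10. The part of length and GC in the differences was not tested.

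**Figure D5:**
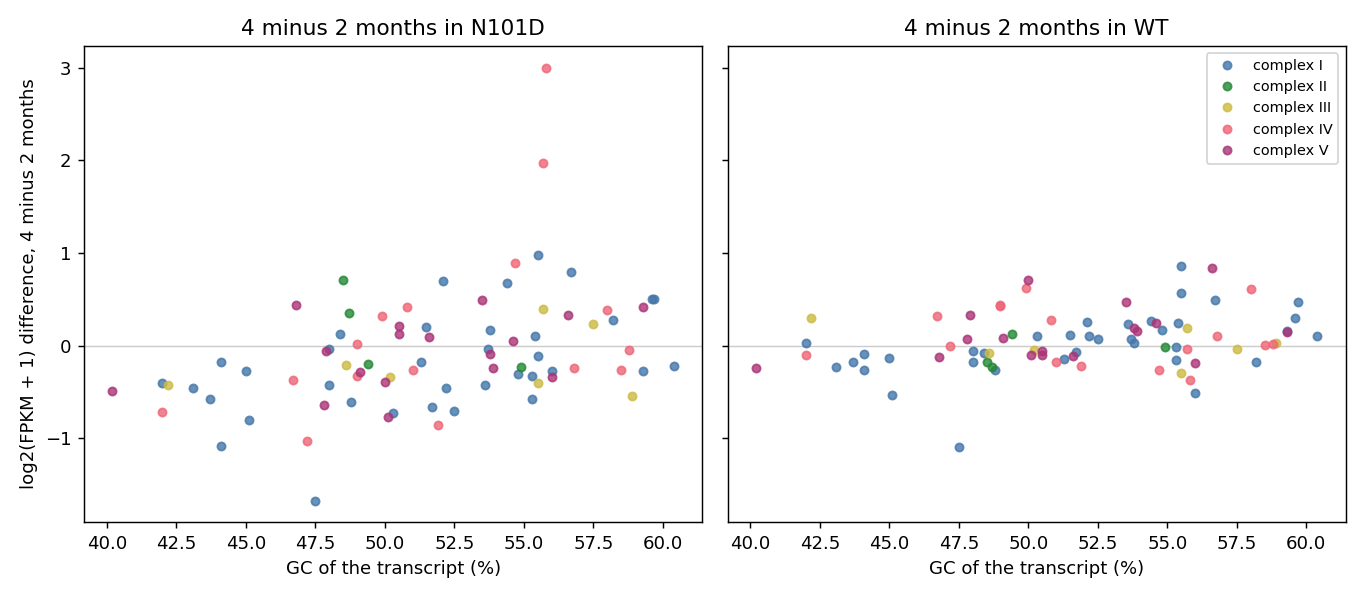
Difference in log2(FPKM + 1), 4 minus 2 months, of 80 members in N101D (left) and WT (right) against the GC of the transcript in percent, colored by complex. In N101D 17 of the 20 members of lowest GC lie below 0 and 12 of the 21 members of highest GC lie above it.

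Many genes of oxidative phosphorylation are known targets of nuclear respiratory factor 1 (NRF-1), GABP and YY1, so core motifs of these factors were counted in promoter windows of the RefSeq table (GRCm38.p6, 250 bases before to 50 after a start), on both strands. The window was found for 68 of the 85 members. The NRF-1 core, GCGCA and GCGC with any 1 base between them, stood in 16 of 68 members (23.5%), in 11.8% of 8005 other genes analysed and in 4.6% of all 32851 windows. The YY1 core AAGATGGC stood in 11 members (16.2%), in 5.36% of the other genes and in 2.75% of all windows, and the GABP core CCGGAAGT in 5 members (7.35%), in 9.11% of the other genes and in 3.89% of all windows. None of the 3 motifs contains another, and a match is a description of letters, not a bound site. Most members at the ends of the genotype difference were not found with the NRF-1 core, through its absence or for lack of a window. These were Cox8b, Cox6b2, Cox7a1, Atp5g1, Atp5l, Atp5s, Cox7c, Ndufb11, Ndufa4l2, Cox6c, Uqcr11 and Sdhc. Sdha (lowest of the widely expressed members at 2 months), Ndufa5, Atp5h and Atp5k (low at 4 months) hold the core and were picked for that. The 150 bases before their starts follow, all on the minus strand of GRCm38.p6 and 5′ to 3′, with each NRF-1 core in capitals. They lie at chr13:74350241-74350390 (Sdha), chr6:24527691-24527840 (Ndufa5), chr11:115419920-115420069 (Atp5h) and chr5:108434400-108434549 (Atp5k).
Sdha: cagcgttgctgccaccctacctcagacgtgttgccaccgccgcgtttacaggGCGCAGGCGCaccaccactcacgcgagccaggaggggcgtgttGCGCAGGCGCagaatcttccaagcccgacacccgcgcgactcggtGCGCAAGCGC
Ndufa5: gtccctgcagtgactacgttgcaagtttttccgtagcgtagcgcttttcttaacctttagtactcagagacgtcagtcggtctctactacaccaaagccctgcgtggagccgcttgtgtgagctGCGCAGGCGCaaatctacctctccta
Atp5h: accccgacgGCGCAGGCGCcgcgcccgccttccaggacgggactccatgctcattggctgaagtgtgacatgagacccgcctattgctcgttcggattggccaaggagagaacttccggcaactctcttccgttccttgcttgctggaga
Atp5k: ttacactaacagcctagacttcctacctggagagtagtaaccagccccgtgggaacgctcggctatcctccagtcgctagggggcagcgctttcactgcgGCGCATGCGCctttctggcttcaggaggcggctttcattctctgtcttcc
Sdha holds 3 cores in this stretch and each of the others 1. Of the 16 members with the core, 10 were higher and 6 lower in N101D at 2 months, with a median of 0.10 and a range from -0.79 (Sdha) to 0.38 (Atp5h). At 4 months 3 were higher and 13 lower, with a median of -0.23 and a range from -0.72 (Atp5h) to 0.10 (Sdha). Of the matched members without the core, 25 of 51 were lower at 2 months and 41 of 50 at 4 months, with medians of 0.0 and -0.18. Of all genes, 64.3% were lower at 2 months and 44.7% at 4 months. Levels of Nrf1 itself were 3.13 FPKM in N101D lenses against 3.45 in WT lenses at 2 months, and 4.48 in N101D lenses against 3.85 in WT lenses at 4 months.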

How the data were processed

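The series holds 4 lens RNA-seq libraries, 1 per genotype and age. The authors deposited FPKM values per locus, made with TopHat 1.2.0, Cufflinks 1.0.3 and Cuffdiff on mm9, per the submitters' processing notes; the annotation and Cuffdiff's version are not given in the sources used here. Among 44597 listed loci, 289 at 2 months and 488 at 4 months have status FAIL and were taken as missing. A symbol took its locus of highest mean FPKM. Listed starts count from 0 and were raised by 1. Differences are of log2(FPKM + 1) for genes at 1 FPKM or more in at least 1 library, so they understate changes of low genes. The additive fit used limma 3.58.1 in R 4.3.3. It was also run on simulated data with equal noise for every gene and a genotype effect that was the same at both ages. That run cannot show how the fit behaves where the genotype difference changes with age or 1 library stands apart. Depth was read from FPKM steps (84.4% to 85.2% of low values within 0.05 of a whole read); a doubled depth matches slightly better in N101D at 2 months (48.9 M, 86.8%) and WT at 4 months (70.0 M, 87.9%), so read numbers are approximate. Genes named were the 2 highest and 2 lowest in level per complex, the 5 extremes per genotype comparison, those past 2-fold, restricted isoforms with their partners, and the 3 lowest p-values for genotype; members past a difference of 0.32 with age in both genotypes, members whose libraries did not overlap, Cyc1 and the sister genes of Atp5g1 were named after their values were seen. Members and lists were chosen with earlier results of these data known. Alternatives were the added constant, the filter, 2 scalings, summed loci, status and membership. Where a symbol stands on several loci (10 members), levels are of 1 locus. The values of 1 member and of 1 marker gene are in the counts and sums but are not reported here.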

Additional observations from a re-analysis of the deposited data

Results flagged for a closer look

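Several results pointed in opposite directions at the 2 ages, and the difference between the ages was not tested for any of them. The median genotype difference, N101D minus WT in log2(FPKM + 1), was 0.03 at 2 months and -0.18 at 4 months over all members, 0.04 and -0.17 in complex I, 0.03 and -0.22 in complex IV, and 0.05 and -0.18 in complex V. With equal totals without crystallins the 2-month medians are negative too. Past a difference of 0.32 in opposite directions were 5 members (6.25%), a share near the 5.91% of all genes. Atp5h was at 0.38 (2 months) and -0.72 (4 months), Cox5a at 0.39 and -0.38, Cox6c at 0.36 and -0.68, and Ndufa4 at 0.36 and -0.46. Cox6b2 ran the other way, at -1.38 and 0.63. Cox5a, a subunit of the matrix side of complex IV, had 69.3 FPKM in N101D lenses against 52.5 in WT lenses at 2 months, and 54.8 in N101D lenses against 71.7 in WT lenses at 4 months.

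Among loci without a symbol, which the comparisons do not use, 1 of the 2 that span the whole mitochondrial genome was above the WT level at both ages, by 0.54 at 2 months and 0.37 at 4 months. The other was below it at both ages, by -0.88 and -0.97, and so was the sum of the 2.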

How the results depend on the processing

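Medians of the members kept their direction under the other added constant, both other filters, summed loci, status OK only and the dropping of non-subunits, of X-linked members or of isoforms of restricted expression; the last 2 settings were chosen after seeing the data. Scaling mattered. With equal totals of named genes without crystallins the members' median became -0.42 at 2 months (79 lower) and 0.25 for 4 minus 2 months in N101D (18 lower). The totals behind that scaling were 263775 FPKM in N101D lenses against 189605 in WT lenses at 2 months, and 188998 in N101D lenses against 185959 in WT lenses at 4 months. The locus of Mir715 alone was at 34147, 7768, 8344 and 3168 FPKM in that order. C230081A13Rik, 2610528E23Rik, Filip1l and Kpna1 were likewise highest in N101D at 2 months. The limma fit then called 61 genes for genotype, with 1 member (Cox8b, -1.72), and 159 for age, with 3 members (Cox8b 1.47, Ndufa1 -1.13, Ndufb10 1.17). With quantile normalization the median relative to all genes was 0.0 at 2 months, -0.08 at 4 months and -0.19 for age in N101D, the WT age median was -0.05 and, relative to all genes, -0.03, and limma called 1 gene for age, as it did with summed loci. Without a filter the N101D age median relative to all genes was -0.23. The cause was not tested. Over 31 named members and the 4 settings that can change the value of a single gene (added constant, both scalings, summed loci), 375 of 483 values moved by less than 0.1, 99 moved more, and 9 crossed 2-fold (4 beyond it, 5 back); none past 2-fold turned its direction. No paired analysis was possible because each group is 1 library and the labels carry no replicate numbers. Leaving out a library leaves no residual degrees of freedom in the additive fit, so it was not run. Low members are limited by depth, as in the about 1 to 23 reads of Cox7a1.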

Other observations

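No mitochondrially encoded subunit is named in the tables analysed. The 2 loci that span the mitochondrial genome carry no symbol. One had 1060 FPKM in N101D lenses against 729 in WT lenses at 2 months, and 750 in N101D lenses against 581 in WT lenses at 4 months. The other had 644 FPKM in N101D lenses against 1190 in WT lenses at 2 months, and 581 in N101D lenses against 1138 in WT lenses at 4 months. Their sum was 1704 FPKM in N101D lenses against 1919 in WT lenses at 2 months, and 1331 in N101D lenses against 1719 in WT lenses at 4 months.

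Among 12 other nuclear genes of the respiratory chain, Usmg5, a small protein found with ATP synthase, had the highest difference at 2 months and the lowest at 4 months. It had 13.5 FPKM in N101D lenses against 8.05 in WT lenses at 2 months, and 6.26 in N101D lenses against 8.65 in WT lenses at 4 months. Ndufab1, the mitochondrial acyl carrier protein, which is also a subunit of complex I but lies outside the name rule, had 6.52 FPKM in N101D lenses against 8.82 in WT lenses at 2 months, and 11.5 in N101D lenses against 8.50 in WT lenses at 4 months. Of 7 mitophagy genes, 5 were higher in N101D at 2 months (35.6% of all genes), with a median of 0.25. Lower at 4 months were also 5 (44.7% of all genes), with a median of -0.15. The lowest at 2 months and the highest at 4 months was Phb2, with differences of -0.65 and 0.39. It had 12.4 FPKM in N101D lenses against 20.1 in WT lenses at 2 months, and 26.3 in N101D lenses against 19.9 in WT lenses at 4 months. Bnip3 was at the other end at both ages (0.36 and -0.24). Bnip3l, a mitophagy receptor known for organelle removal in the lens, was at neither end. Its level was 96.9 FPKM in N101D lenses against 77.6 in WT lenses at 2 months, and 75.3 in N101D lenses against 85.1 in WT lenses at 4 months. Of 18 genes for mitochondrial membrane proteins, carriers and import, the lowest at 2 months was Mfn2, a fusion protein, at 7.03 FPKM in N101D lenses against 11.0 in WT lenses, and the highest at 4 months was also Mfn2, at 12.5 in N101D lenses against 10.1 in WT lenses.

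The symbol of Ndufa13 stands on a second locus with a level like the first. The locus used had 40.7 FPKM in N101D lenses against 37.8 in WT lenses at 2 months, and 35.0 in N101D lenses against 40.6 in WT lenses at 4 months. The second locus had 43.5 FPKM in N101D lenses against 33.6 in WT lenses at 2 months, and 27.0 in N101D lenses against 31.1 in WT lenses at 4 months.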
